A study of Mus musculus with 11 samples.

Results

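The genes described here are 10 FOXO-linked brakes on growth, glucose uptake and PI3 kinase signalling: Pik3ip1, Txnip, Tsc22d3, Cdkn1b, Ccng2, Btg1, Hbp1, Ypel3, Pink1 and Fbxo32. They were taken by name from the deposited expression table, which lists 25562 genes, and all 10 were found. The genes were chosen by their measured TPM differences between AOAH, PC and vehicle in these same libraries. These differences between groups are therefore given as a description with no p-value, and where calls among them are counted beside the background, nothing is read from the count. The RNA came from cytotoxic CD8+ T cells that had been purified by kit from the spleens of inbred C57BL/6 mice.

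There were 11 libraries in 3 groups. The 4 AOAH libraries came from cells given 10 µg/mL recombinant human acyloxyacyl hydrolase with a His tag (AOAH-His) together with the ethanol control. AOAH is a lipase that removes fatty acyl chains from bacterial lipopolysaccharide and phospholipids. The 3 PC libraries came from cells given 60 µM PC16:0-20:4, a phosphatidylcholine carrying a palmitoyl and an arachidonoyl chain, followed by the protein buffer control, which was 10% glycerol in PBS. The 4 vehicle libraries came from cells given the ethanol control and that same buffer. All cells were pretreated for 22 h and then stimulated over 24 h through CD3, with 1 µg/mL antibody, and CD28, with 0.5 µg/mL antibody, so the vehicle cells were activated too and no resting cells are among the groups. The labels place AOAH both in the pretreatment and in the activation step, name both plate-bound antibody and beads, and allow medium with or without interleukin-2. They give no age, do not say whether libraries came from separate animals, and number libraries by batch 1 to 4, with no PC library of batch 4.

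FOXO proteins are forkhead transcription factors that act in the nucleus when PI3 kinase and AKT are quiet. In resting T cells they sustain genes of quiescence, survival and homing. When the antigen receptor and CD28 are engaged, AKT phosphorylates FOXO proteins, which leave the nucleus, and their targets decline as cells grow and divide. The listed genes act at several points of that switch. Pik3ip1 restrains PI3 kinase at the membrane, Txnip restrains glucose uptake and thioredoxin, and Tsc22d3 encodes GILZ, a glucocorticoid-induced inhibitor of inflammatory signalling. Cdkn1b, Ccng2, Btg1, Hbp1 and Ypel3 slow the cell cycle or growth. Pink1 marks damaged mitochondria for removal, and Fbxo32 is a ubiquitin ligase subunit best known from wasting muscle.

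Promoter windows from RefSeq (build GRCm38.p6, 250 bases before to 50 bases after a start site) were found for 9 of the 10 genes, 11 windows in all, since Tsc22d3 has 3. The deposited data use mm39, so the positions below are those of the RefSeq windows. The forkhead core GTAAACA, or its reverse complement TGTTTAC, was present in 4 of these 11 windows, each of a different gene, against 3.65% of all 32851 windows. Since the genes were listed as FOXO-linked, nothing is read from that count. The matching stretches are shown because they hold the letters that FOXO factors are known to recognise, which are in capitals. All run 5′ to 3′ on the gene's strand.
Txnip, chr3:96557810-96557869, plus strand, motif starting at -121 from the start site: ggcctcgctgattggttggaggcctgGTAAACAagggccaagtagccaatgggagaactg
Btg1, chr10:96616771-96616830, plus strand, motif starting at -204: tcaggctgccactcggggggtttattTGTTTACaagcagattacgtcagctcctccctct
Hbp1, chr12:31950376-31950405, minus strand, motif starting at -149: caccttctccaGTAAACAcaagagaaaagt
Ypel3, chr7:126776977-126777006, plus strand, motif starting at 26 after the start site: ctggtctcggtGTAAACAagtcgaggcggc
The Btg1 stretch holds the reverse complement and the other 3 hold the forward letters. The E-box CACGTG, the same on both strands, was in none of the 11 windows and in 7.15% of all windows. The GC box GGGCGG, or CCGCCC on the other strand, was in 8 of the 11 windows, of 7 genes, and in 35.7% of all windows. The bases G and C made up 48.7% to 67.7% of the 11 windows, where the median of all windows was 52.7%. The part of base composition in the GC box count was not tested. In the 4 stretches the forkhead letters overlap no GC box. A match says that these letters stand in the window, and no match says only that they do not.

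In the vehicle libraries, which set the level that activated cells kept, the 10 genes spanned a wide range of TPM, a length-corrected share of a library's transcripts. Btg1 was highest at 75.8 to 81.0 TPM, followed by Txnip at 64.5 to 73.1, Ypel3 at 45.6 to 53.7 and Cdkn1b at 29.8 to 35.0 TPM. Pik3ip1 at 19.0 to 21.9 TPM overlapped with Pink1 at 14.0 to 19.1 TPM, and Tsc22d3 at 11.1 to 11.9 TPM overlapped with Hbp1 at 9.87 to 11.2 TPM. Ccng2 at 7.01 to 8.26 TPM and Fbxo32 at 1.55 to 1.76 TPM stood apart below them. All 10 passed the filter, an average of 1 TPM or more over the libraries compared, in each comparison, and Fbxo32 was closest to it.

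**Figure D1:**
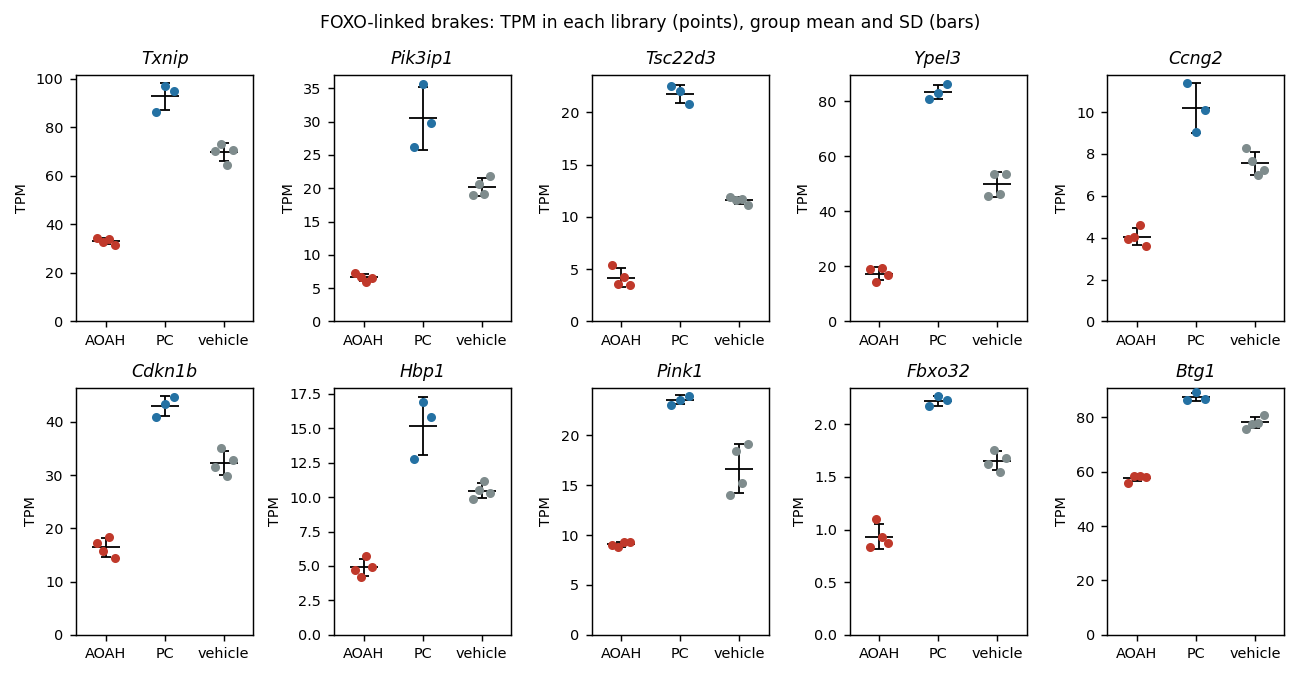
TPM of each of the 10 genes (vertical axes, each from 0) in AOAH, PC and vehicle libraries (horizontal axis); points are libraries and bars are the group mean and SD. In each panel the 4 AOAH points lie below the 4 vehicle points, and the 3 PC points lie above them, from 55.9 to 89.2 TPM for Btg1, the gene with the smallest fold between them.

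With AOAH the brakes were lower and with PC they were higher than with vehicle. For each of the 10 genes, the AOAH libraries all lay below the 4 vehicle libraries, and these all lay below the PC libraries. Of 11596 genes averaging 1 TPM or more, 598 (5.16%) had that order and 812 (7.0%) had the opposite one. The vehicle libraries are shared by both comparisons, and nothing is read from the count because these levels were known when the genes were listed. Together the 10 genes summed to 149 to 161 TPM in AOAH libraries, to 393 to 422 TPM in PC libraries and to 284 to 310 TPM in vehicle libraries. Over all genes tested, 13.7% had every AOAH library below every vehicle library, 17.9% had every PC library above vehicle 1 to 3, and 23.9% had every AOAH library below every PC library. In bulk RNA, fewer cells that express a gene and less RNA of it per cell cannot be told apart.

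Pik3ip1, the membrane inhibitor of PI3 kinase, had 7.22, 6.75, 5.96 and 6.51 TPM in AOAH libraries 1 to 4 and 26.2, 35.6 and 29.8 TPM in PC libraries 1 to 3. In vehicle libraries 1 to 4 it had 19.0, 20.6, 19.1 and 21.9 TPM. No groups overlapped, and PC library 2 was the highest of the series. The mean was 6.61 ± 0.524 TPM with AOAH (SD, n = 4) and 30.5 ± 4.74 TPM with PC (SD, n = 3), a 4.62-fold higher mean with PC. The log2(TPM + 1) difference of AOAH minus PC was -2.04 ± 0.10 (SE). Against vehicle 1 to 3, PC gave 0.61 ± 0.11 (SE), and its same-batch differences ran from 0.44 to 0.76.

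Txnip, which binds thioredoxin and draws glucose transporters from the cell surface, had 34.2, 32.7, 33.9 and 31.3 TPM in AOAH libraries and 86.3, 97.0 and 94.8 TPM in PC libraries. The vehicle libraries had 70.3, 73.1, 64.5 and 70.8 TPM. The AOAH libraries lay within 3 TPM of each other and under every vehicle library, while the PC libraries lay above. The means were 33.0 ± 1.32 TPM in AOAH (n = 4), 92.7 ± 5.66 TPM in PC (n = 3) and 69.7 ± 3.67 TPM in vehicle libraries (SD, n = 4). The AOAH minus PC difference was -1.46 ± 0.05 (SE) on the log2(TPM + 1) scale, and the PC minus vehicle difference was 0.42 ± 0.06.

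Tsc22d3, the gene of the leucine zipper protein GILZ, had 5.42, 3.56, 4.26 and 3.45 TPM in AOAH libraries and 22.5, 22.0 and 20.8 TPM in PC libraries. In vehicle libraries 1 to 4 it stood at 11.9, 11.6, 11.7 and 11.1 TPM. The vehicle libraries were nearly level, and AOAH library 1 was the highest of its group without reaching them. PC minus vehicle was 0.84 ± 0.05 (SE) on the log2(TPM + 1) scale, the largest PC difference of the 10 genes. AOAH minus vehicle was -1.30 ± 0.11, and AOAH minus PC was -2.15 ± 0.13, where the PC mean of 21.8 TPM was 5.22 times the AOAH mean of 4.17 TPM.

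Ypel3, a small protein of the yippee family that slows growth in mammalian cell lines, had 19.0, 14.3, 19.3 and 16.7 TPM in AOAH libraries and 80.8, 83.1 and 86.1 TPM in PC libraries. Its vehicle levels were 45.6, 53.6, 46.3 and 53.7 TPM. Vehicle libraries 2 and 4 stood above vehicle libraries 1 and 3, and all of them lay between the AOAH and PC groups. Ypel3 had the largest AOAH minus PC difference of the 10 genes, -2.21 ± 0.10 (SE) on the log2(TPM + 1) scale. It was -1.48 ± 0.10 for AOAH minus vehicle and 0.77 ± 0.07 for PC minus vehicle. Its promoter window is the one with GTAAACA just after the start site, at 26.

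Cdkn1b, which encodes p27, an inhibitor of the cyclin E and CDK2 kinase, had 17.3, 15.7, 18.3 and 14.4 TPM in AOAH libraries and 41.0, 43.3 and 44.7 TPM in PC libraries. The vehicle libraries had 31.5, 35.0, 29.8 and 32.8 TPM. The AOAH mean of 16.4 ± 1.72 TPM was 0.509 times the vehicle mean of 32.3 ± 2.20 TPM (SD, n = 4 each), and the log2(TPM + 1) difference was -0.94 ± 0.08 (SE). PC minus vehicle was 0.41 ± 0.07.

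Ccng2, an atypical cyclin that is high in resting cells, had 3.94, 4.01, 4.60 and 3.62 TPM in AOAH libraries and 11.4, 9.03 and 10.1 TPM in PC libraries. In vehicle libraries 1 to 4 it stood at 8.26, 7.65, 7.01 and 7.25 TPM. PC library 2 came within 1 TPM of vehicle library 1, so this gene had a narrow gap between PC and vehicle. The log2(TPM + 1) difference was -0.76 ± 0.08 (SE) for AOAH minus vehicle and 0.37 ± 0.10 for PC minus vehicle.

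Hbp1, a repressor of growth and cell cycle genes, had 4.74, 4.20, 5.69 and 4.93 TPM in AOAH libraries and 12.8, 16.9 and 15.8 TPM in PC libraries, where PC library 1 was the lowest. Its vehicle levels were 9.87, 10.5, 11.2 and 10.3 TPM. The differences were -0.97 ± 0.08 (SE) for AOAH minus vehicle and 0.48 ± 0.11 for PC minus vehicle on the log2(TPM + 1) scale.

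Btg1, an antiproliferative protein that binds the CCR4-NOT deadenylase and holds T cells in quiescence in mice, had 55.9, 58.6, 58.4 and 58.2 TPM in AOAH libraries and 86.5, 89.2 and 86.8 TPM in PC libraries. The vehicle libraries had 75.8, 77.7, 78.0 and 81.0 TPM. Btg1 was the most abundant of the 10 genes in vehicle and AOAH libraries and differed least between groups. Its AOAH mean was 0.74 times the vehicle mean and its PC mean was 1.13 times that of vehicle 1 to 3. The corresponding log2(TPM + 1) differences were -0.43 ± 0.03 and 0.18 ± 0.03 (SE).

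Pink1, a kinase that accumulates on damaged mitochondria, had 9.01, 8.78, 9.27 and 9.28 TPM in AOAH libraries and 23.1, 23.6 and 24.0 TPM in PC libraries. In vehicle libraries 1 to 4 it stood at 14.0, 18.4, 15.2 and 19.1 TPM. The AOAH and PC libraries were each close together, and the vehicle libraries were spread over about 5 TPM. The direct AOAH minus PC difference was -1.28 ± 0.05 (SE) on the log2(TPM + 1) scale, with the same-batch differences between -1.33 and -1.26.

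Fbxo32, which encodes atrogin-1, had 0.83, 1.10, 0.93 and 0.87 TPM in AOAH libraries and 2.17, 2.27 and 2.23 TPM in PC libraries. Its vehicle levels were 1.62, 1.76, 1.55 and 1.68 TPM. The groups did not overlap, but the gene lay near the filter, where the pseudocount of 1 compresses a fold. Its AOAH mean was 0.564 times the vehicle mean, while the log2(TPM + 1) difference was only -0.46 ± 0.10 (SE). The authors' deposited table, made from counts, gives a log2 fold change of -0.84 with a standard error of 0.19 for AOAH and 0.45 with 0.20 for PC. For the other 9 genes the authors' deposited table gives values from -1.61 for Pik3ip1 to -0.44 for Btg1 with AOAH, and from 0.20 for Btg1 to 0.90 for Tsc22d3 with PC.

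**Figure D2:**
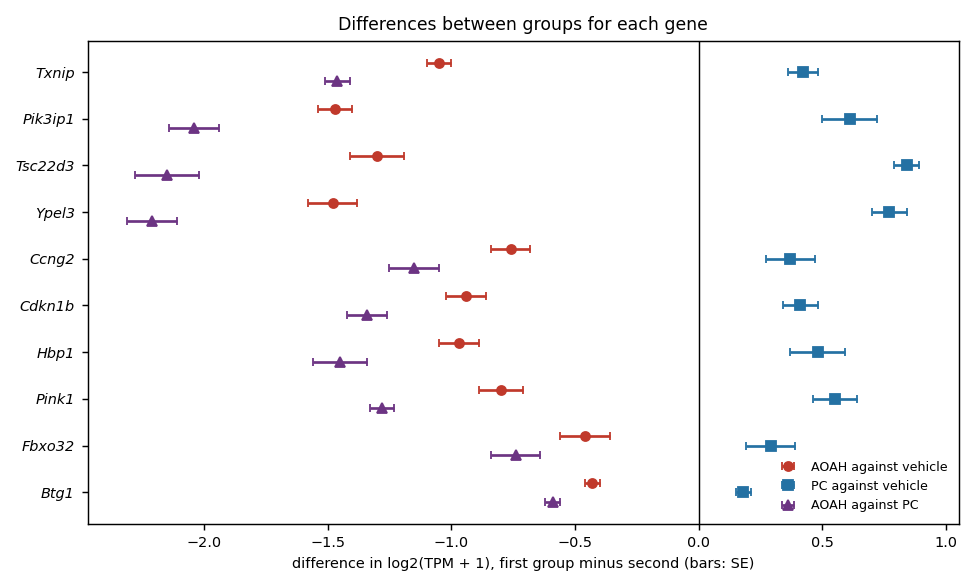
Difference in log2(TPM + 1) (horizontal axis) for each of the 10 genes (rows), AOAH minus vehicle (circles), PC minus vehicle (squares) and AOAH minus PC (triangles); points are fitted differences and bars are SE. All AOAH minus vehicle values lie below 0, from -1.48 for Ypel3 to -0.43 for Btg1, and all PC minus vehicle values lie above 0, from 0.18 for Btg1 to 0.84 for Tsc22d3.

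Over the list, the median log2(TPM + 1) difference was -0.95 for AOAH minus vehicle, where the median of all 11561 genes tested was 0.01. It was 0.45 for PC minus vehicle, where that of all 11627 genes was -0.01, and -1.40 for AOAH minus PC, where that of all 11596 genes was 0.0. Every AOAH library was lower in the median of the 10 genes, by -1.03 to -0.78 relative to the vehicle mean, and every PC library was higher, by 0.35 to 0.48. The vehicle libraries lay between -0.08 and 0.04. All 10 genes were lower in each of the 4 same-batch pairs of AOAH with vehicle and higher in each of the 3 same-batch pairs of PC with vehicle.

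The background of calls was large. limma, a linear model with shared variance estimates, at a Benjamini-Hochberg adjusted p under 0.05, called 2913 of 11561 genes with AOAH (25.2%), 1399 of them lower (12.1%), and all 10 brakes were among the lower. With PC it called 2269 of 11627 genes (19.5%), 961 of them higher (8.27%), among them 9 of the 10 brakes and not Fbxo32. Between AOAH and PC it called 5307 of 11596 genes (45.8%), 2493 of them lower with AOAH (21.5%), with all 10 brakes among the lower. These calls rest on the values that were known when the genes were listed, and nothing is read from them. A difference of at least 1.5-fold on the log2(TPM + 1) scale was found for 8 of 10 brakes lower with AOAH (3.38% of genes tested) and 3 of 10 higher with PC (1.83%). On the same scale, 8 of 10 brakes were at least 2-fold lower with AOAH than with PC (2.09% of genes tested), all but Fbxo32 and Btg1. By mean TPM, without the pseudocount, Fbxo32 was 2.38-fold higher with PC than with AOAH.

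**Figure D3:**
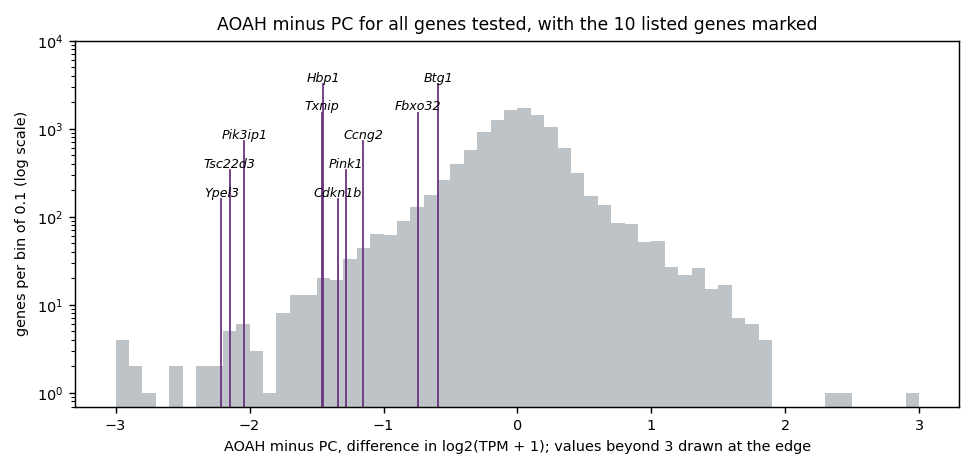
Number of genes (vertical axis, log scale) by AOAH minus PC difference in log2(TPM + 1) (horizontal axis) over the 11596 genes tested, with the 10 brakes marked by lines. The brakes lie on the negative side, between -2.21 for Ypel3 and -0.59 for Btg1, while the median of all genes is at 0.0.

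The genes whose levels ran closest to a brake were found by the root mean square difference of log2(TPM + 1), centred on the vehicle mean, over the 7 AOAH and PC libraries. Closest to Txnip were Arl4c, a small GTPase (0.061), and Samd9l (0.108). Closest to Pik3ip1 were the amino acid transporter gene Slc6a19 (0.202) and the interferon-induced Ifit3 (0.206). Tsc22d3 had the long noncoding RNA Neat1 (0.187) and Ypel3 (0.198) nearest. Ypel3 had the chemokine receptor gene Cxcr4 (0.10) nearest, followed by Tsc22d3 (0.198). Ypel3 and Tsc22d3 were the only brakes among each other's nearest 2 genes. The nearest genes of Ccng2 were Rasgrp2 (0.093), a Rap activator of lymphocytes, and Stat2 (0.11), a factor of the interferon response. Cdkn1b had Cmah (0.082) and Pde2a (0.099), and Hbp1 had Pde2a (0.113) and Trp53inp1 (0.116). Pink1 had Tnfrsf26 (0.044) and F2rl1 (0.056), Fbxo32 had Kdm4b (0.039) and Ip6k1 (0.052), and Btg1 had Lfng (0.039) and Rab43 (0.054). A gene with small differences, such as Btg1, finds near neighbours more easily than one with large differences.

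Foxo1, Foxo3 and Foxo4 each had smaller log2(TPM + 1) differences than any of the brakes. Foxo1, the main FOXO factor of T cells, fell with AOAH, to 12.6 ± 0.411 TPM, against 16.2 ± 0.406 TPM with vehicle (SD, n = 4 each; difference -0.34 ± 0.05 SE in log2(TPM + 1), limma adjusted p = 0.000834). With PC it had 16.9 ± 0.938 TPM, against 16.2 ± 0.493 TPM in vehicle 1 to 3 (0.05 ± 0.06, limma adjusted p = 0.603). Foxo3 had 12.4 ± 1.37 TPM in AOAH, 12.7 ± 0.878 TPM in PC and 12.1 ± 0.111 TPM in vehicle libraries, and limma adjusted p-values were 0.807 for AOAH and 0.493 for PC. Foxo4 passed no test either, with 7.03 ± 1.08 TPM in AOAH and 8.14 ± 0.95 TPM in vehicle libraries (limma adjusted p = 0.249). With PC it had 7.91 ± 0.321 TPM, against 7.7 ± 0.418 TPM in vehicle 1 to 3 (0.04 ± 0.07, limma adjusted p = 0.766). TPM does not show where FOXO proteins are in the cell or whether they are phosphorylated.

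Among 18 tested FOXO factors, kinases and partners, 3 rose and 2 fell with AOAH, and 1 rose and 3 fell with PC. Between AOAH and PC directly, 5 were higher and 6 lower with AOAH. The shares of all genes that limma called in either direction were 25.2% with AOAH, 19.5% with PC and 45.8% between AOAH and PC. The list medians were 0.01, 0.03 and -0.06. Sgk1, a kinase related to AKT that also phosphorylates FOXO proteins, fell with AOAH (-0.55 ± 0.08 SE, limma adjusted p = 0.00129) and rose with PC (0.39 ± 0.07, 0.0123). Foxm1, a forkhead factor of mitosis, rose with AOAH, to 18.1 ± 0.969 TPM against 13.9 ± 1.86 TPM with vehicle (limma adjusted p = 0.016). With PC it fell to 6.74 ± 0.927 TPM, against 14.1 ± 2.20 TPM (limma adjusted p = 0.00422). Akt1 fell with PC, to 99.8 ± 0.84 TPM against 116 ± 0.955 TPM in vehicle 1 to 3 (limma adjusted p = 0.00287).

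Other FOXO targets, 29 of 31 listed being testable, leaned the same way as the brakes. With AOAH 17 fell, against 12.1% of all genes tested, and 1 rose, the mitophagy receptor gene Bnip3. The list median was -0.25. With PC 10 rose, against 8.27% of all genes tested, and 0 fell by limma (median 0.14). At an unadjusted p under 0.05 the counts were 13 higher and 1 lower. This list holds genes whose results were known when it was chosen, so its counts are no independent evidence of direction, and 5 to 11 rose with PC depending on the processing, with the fewest when no filter was used. Between AOAH and PC, 21 were lower with AOAH, against 21.5% of all genes tested, and 1 was higher (median -0.44). The widest gaps were in Klf2, the factor that drives lymphocyte homing genes, at 11.8 ± 0.981 TPM with AOAH (n = 4) and 94.2 ± 4.02 TPM with PC (SD, n = 3; -2.90 ± 0.07 SE in log2(TPM + 1), limma adjusted p = 5.25e-07). Its target S1pr1, a receptor for exit from lymphoid organs, had 7.26 ± 0.922 TPM with AOAH and 54.6 ± 1.30 TPM with PC. Il7r, the receptor chain for interleukin-7, had 18.0 ± 3.30 TPM with AOAH and 94.4 ± 1.80 TPM with PC (-2.34 ± 0.12). Cdkn1a, which encodes the CDK inhibitor p21, rose with PC (0.83 ± 0.08, limma adjusted p = 0.00146), and with AOAH it differed by 0.14 (adjusted p = 0.109).

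Pik3ip1's neighbours in function were 17 other tested brakes on PI3 kinase and mTOR. With AOAH 1 fell, and 0 rose by limma, against 3 lower and 2 higher at an unadjusted p under 0.05. The gene that fell was Castor1, an arginine sensor that restrains mTORC1 (-0.33 ± 0.08 SE in log2(TPM + 1), limma adjusted p = 0.0122). It also fell with PC (-0.36 ± 0.09, 0.0297), a call lost when any of the 6 libraries was left out (adjusted p = 0.0627 to 0.0897) and with batch as a block (0.0887). With PC 2 rose and 2 fell, and between AOAH and PC 3 were higher and 5 lower with AOAH. Of all genes tested, limma called 25.2% with AOAH, 19.5% with PC and 45.8% between AOAH and PC, in either direction. Sesn2, a stress-induced inhibitor of mTORC1, rose with PC to 10.5 ± 0.0361 TPM, against 6.08 ± 0.351 TPM in vehicle 1 to 3 (limma adjusted p = 0.00145). Ddit4, another mTORC1 inhibitor, rose with PC (0.43 ± 0.05, limma adjusted p = 0.00207), and Inpp4b, a lipid phosphatase, fell with PC (-0.52 ± 0.06, 0.00207). The list medians were -0.02 for AOAH, -0.05 for PC and -0.11 for AOAH minus PC.

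Around Txnip, of 12 tested genes of thioredoxin and glucose uptake 5 rose and 2 fell with AOAH, and of 13 tested 1 rose and 2 fell with PC. Among all genes tested, 25.2% were called with AOAH and 19.5% with PC, in either direction. Slc2a1, the glucose transporter GLUT1, rose with AOAH to 52.6 ± 1.13 TPM, against 39.8 ± 2.82 TPM with vehicle (0.39 ± 0.05 SE in log2(TPM + 1), limma adjusted p = 0.00073). With PC it had 41.5 ± 1.96 TPM, against 40.5 ± 2.96 TPM in vehicle 1 to 3 (limma adjusted p = 0.748). Hk2, a hexokinase that commits glucose to glycolysis, rose with AOAH (0.29 ± 0.06, limma adjusted p = 0.0108) and fell with PC (-0.34 ± 0.06, 0.00821). Arrdc3, an arrestin of Txnip's family, fell with AOAH (-0.50 ± 0.10, limma adjusted p = 0.0051). Its rise with PC (0.45 ± 0.12, 0.0434) lost the call when any of the 6 libraries was left out (adjusted p = 0.0568 to 0.127) and with batch as a block (0.072). Arrdc4, another member of that family, was lower with AOAH, at 0.662 ± 0.0718 TPM, than with PC, at 1.59 ± 0.228 TPM (limma adjusted p = 0.00272). The number of genes that rose with AOAH was 2 with no filter and 3 with batch as a block.

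Around Cdkn1b, of 12 tested cell cycle inhibitors and regulators of p27 turnover 4 rose and 2 fell with AOAH, and 1 rose and 6 fell with PC. The background of calls in either direction was 25.2% of genes with AOAH and 19.5% with PC. The 4 genes of this list that rose with AOAH, among them Skp2, Cks1b and Ccne1, promote the cell cycle. All 4 fell with PC and so had the direction opposite to Cdkn1b. Skp2, the ubiquitin ligase subunit that marks p27 for destruction, rose with AOAH to 10.8 ± 0.252 TPM, against 8.48 ± 0.667 TPM with vehicle (0.31 ± 0.06 SE in log2(TPM + 1), limma adjusted p = 0.00662). With PC it fell to 6.06 ± 0.527 TPM, against 8.77 ± 0.437 TPM (-0.47 ± 0.08, limma adjusted p = 0.00928). Cks1b, the cofactor of Skp2, had 158 ± 5.23 TPM with AOAH and 89.2 ± 5.82 TPM with PC (limma adjusted p = 9.32e-06), and Ccne1, cyclin E1, had 67.8 ± 3.24 TPM with AOAH and 37.1 ± 1.41 TPM with PC (7.6e-06). Rbl2, a pocket protein of resting cells and a FOXO target, fell with AOAH (-0.48 ± 0.05, limma adjusted p = 0.000309). Cdkn2c, another CDK inhibitor, fell with PC (-0.58 ± 0.11, 0.0131), with an adjusted p of 0.0516 when vehicle 1 was left out. Skp2, Sgk1, Cdkn1a, Cdkn2d, Rbl2 and Bnip3 each stand in more than 1 list and were counted in each.

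Around Btg1, of 16 tested BTG, TOB and other quiescence factors of T cells 4 fell and 2 rose with AOAH (median -0.03). Of the 2 that rose, Cnot7 had the larger difference (0.24 ± 0.07 SE in log2(TPM + 1), limma adjusted p = 0.0427). That call was lost in 9 of 17 alternatives (adjusted p = 0.0636 to 0.106). With PC 10 rose and 0 fell by limma (median 0.20), with 11 higher and 0 lower at an unadjusted p under 0.05. Over all genes tested, limma called 12.1% lower with AOAH and 8.27% higher with PC. The list of quiescence factors was chosen with results of these data known, so its counts are no independent evidence of direction. Btg2, the close relative of Btg1, had 24.9 ± 1.64 TPM in AOAH, 45.3 ± 2.24 TPM in PC and 32.7 ± 1.08 TPM in vehicle libraries (SD, n = 4, 3 and 4). It fell with AOAH (limma adjusted p = 0.00103) and rose with PC (0.00223). Vsir, the checkpoint protein VISTA that keeps naive T cells quiescent in mice, had 40.2 ± 2.74 TPM in AOAH, 88.6 ± 7.75 TPM in PC and 50.9 ± 0.387 TPM in vehicle libraries, and likewise fell (0.00131) and rose (limma adjusted p = 0.000861). Tob1, an antiproliferative relative of Btg1, rose with PC (0.63 ± 0.09 SE in log2(TPM + 1), limma adjusted p = 0.00457). With AOAH it differed by -0.25 ± 0.09 and was not called (0.0662). Tcf7, the factor TCF-1 of naive and memory T cells, fell with AOAH (-0.44 ± 0.03, limma adjusted p = 1.91e-05).

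Relatives of the remaining brakes gave small lists. Of 8 tested genes of the GILZ family and of the glucocorticoid response, 2 fell with AOAH and 0 rose by limma (2 lower and 1 higher at an unadjusted p under 0.05), and 1 rose and 1 fell with PC. For all genes tested, the share called in either direction was 25.2% with AOAH and 19.5% with PC. Fkbp5, a chaperone gene that glucocorticoids strongly induce, fell with PC to 41.0 ± 1.05 TPM, against 53.6 ± 3.18 TPM in vehicle 1 to 3 (limma adjusted p = 0.00402). Tsc22d3 was highest with PC, so with PC Tsc22d3 and Fkbp5 differed from vehicle in opposite directions. The gene of this list that rose with PC was Sgk1 (0.39 ± 0.07 SE in log2(TPM + 1), limma adjusted p = 0.0123), which had the direction of Tsc22d3. Ypel5, the only other yippee gene tested, had 3.23 ± 0.667 TPM in AOAH, 7.43 ± 0.523 TPM in PC and 5.24 ± 0.967 TPM in vehicle libraries, and was lower with AOAH than with PC (-1.01 ± 0.13 SE in log2(TPM + 1), limma adjusted p = 0.000468). Its fall with AOAH (adjusted p = 0.0205) lost the call without AOAH 2 (0.0538), vehicle 2 (0.0591) or vehicle 4 (0.0576). Its rise with PC (0.0325) lost it without PC 1, PC 2, PC 3, vehicle 1 or vehicle 3 (0.0717 to 0.104) and with batch as a block (0.0743).

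Around Pink1, of 10 tested mitophagy genes 2 rose and 2 fell with AOAH, and with PC 1 rose and 0 fell by limma (2 higher and 0 lower at an unadjusted p under 0.05). Across all genes tested, 25.2% were called with AOAH and 19.5% with PC, in either direction. Sqstm1, the autophagy receptor p62, rose with PC to 147 ± 8.35 TPM, against 93.1 ± 2.46 TPM in vehicle 1 to 3 (limma adjusted p = 0.00074), and fell with AOAH (-0.18 ± 0.03 SE in log2(TPM + 1), 0.00569). Bnip3, which responds to hypoxia as well as to FOXO factors, went the other way, with 14.8 ± 0.79 TPM in AOAH and 6.43 ± 1.03 TPM in PC libraries (1.10 ± 0.09, limma adjusted p = 6.46e-05). Phb2, an inner membrane receptor for mitophagy, rose with AOAH (0.15 ± 0.02, limma adjusted p = 0.00154).

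The label of CD8+ T cells fitted its markers, with Cd8a at 331 to 346 TPM in AOAH, 426 to 446 TPM in PC and 375 to 383 TPM in vehicle libraries, and Cd4 at no more than 0.42 TPM in any library. The summed level of 6 CD8 T cell markers moved with the brakes, with 1446 to 1475 TPM in AOAH libraries, 1869 to 1925 TPM in PC libraries and 1610 to 1658 TPM in vehicle libraries. Of the 6 markers, 4 fell with AOAH and 6 rose with PC by limma, against 12.1% and 8.27% of all genes tested. B cell markers summed to 132 to 142 TPM in AOAH, 169 to 176 TPM in PC and 153 to 159 TPM in vehicle libraries. Nearly all of that was Ighm, and only 3 of 8 B cell markers reached the filter. Myeloid markers (7 genes analysed) summed to 4.41 to 5.0 TPM in AOAH, 6.29 to 7.63 TPM in PC and 5.17 to 8.92 TPM in vehicle libraries, with Csf3r at 0 in the AOAH and PC libraries. NK and gamma delta T cell markers (5 genes) summed to 83.0 to 89.3 TPM in AOAH, 80.9 to 86.7 TPM in PC and 100 to 104 TPM in vehicle libraries. Nearly all of that was Eomes, with means of 84.8 TPM in AOAH, 81.1 TPM in PC and 99.2 TPM in vehicle libraries. Ncr1 had no more than 0.24 TPM in any library. The 3 CD4 T cell markers summed to 2.11 to 3.38 TPM in AOAH, 2.93 to 4.33 TPM in PC and 2.22 to 2.80 TPM in vehicle libraries. The 3 erythroid markers did not sum to more than 1.14 TPM in any library. The nuclear RNA Malat1, read as a sign of RNA handling, had 96.6 to 136 TPM in AOAH, 234 to 311 TPM in PC and 190 to 194 TPM in vehicle libraries. Neat1, another nuclear RNA, had 14.2 to 21.9 TPM in AOAH, 67.6 to 80.3 TPM in PC and 39.0 to 40.8 TPM in vehicle libraries. The other RNA quality markers were 4 mitochondrial transcripts, which differed by at most 0.25 in log2(TPM + 1) in any comparison. Of these mt-Co1 fell with AOAH (-0.11 ± 0.02 SE, limma adjusted p = 0.0027), and mt-Nd1 fell with PC (-0.14 ± 0.02, 0.00476) and was higher with AOAH than with PC (0.19 ± 0.03, 0.000742). Both nuclear RNAs and the summed CD8 markers had the order of groups that the brakes had. By means, mt-Co1, mt-Cytb and mt-Atp6 had that order too, while mt-Nd1 had the opposite one. Lower with AOAH than with PC were mt-Co1 (-0.15 ± 0.02, limma adjusted p = 0.000327) and mt-Cytb (-0.15 ± 0.03, 0.00446). The part of all these markers in the levels of the brakes was not tested. Between 11423 and 11739 genes reached 1 TPM per library, fewest in AOAH libraries and most in PC libraries. The depth of each library is unknown, since TPM keeps none.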

How the data were processed

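Polyadenylated RNA of 11 libraries was sequenced as paired reads, per the labels' protocols. The authors deposited 1 table of log2 values, whose back-transformed TPM summed to 998406 to 998655 per library, and used RSEM and the build mm39, per the submitters' processing notes. No annotation, version or use of molecular identifiers is given in the sources used here. From the authors' deposited DESeq2 tables came the base mean (a signal, normalized counts averaged over libraries) and the log2 fold change with its standard error, used here only for the 10 brakes. Their p-values and the repertoire table were not used.

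Tests used limma 3.58.1 in R 4.3.3 on log2(TPM + 1), with trended and robust variance, two-sided, over genes averaging 1 TPM or more in the libraries compared, after the procedure was tested on simulated data. Adding 1 shrinks the folds of low genes. PC was compared with vehicle 1 to 3, because vehicle 4 is not labelled for that comparison. The labels name no separate animals, so p-values reflect library spread alone, which may be technical. The members and the lists were chosen with earlier results of these data known. Beside the 10 brakes, the text names up to 4 called genes of the largest difference per list and comparison, Foxo1, Foxo3, Foxo4, Slc2a1 and Skp2, and the 2 nearest genes of each brake. Some genes that this rule names are left out here. Listed genes that were not in the table were not analysed here.

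Same-numbered libraries share a batch label. Across genes, deviations from group means correlated at -0.00332 on average in 10 same-batch pairs (-0.0794 to 0.118) and at 0.00114 in 30 others (-0.125 to 0.14), and the pairing is taken from the labels. Alternatives were batch as a block, pseudocounts of 0.1 and 5, no filter or one of 5 TPM, quantile and TMM scaling, 1 fit over all 11 libraries, no robust variance, vehicle 4 included for PC, and each library left out in turn.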

Additional observations from a re-analysis of the deposited data

Results flagged for a closer look

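Btg1 in AOAH library 1, at 55.9 TPM, was the lowest of its group and lay apart from the others at 58.2 to 58.6 TPM. Its gap to the nearest of them was 0.86 of the group's range, above Dixon's critical value of 0.829 for 4 libraries. It was the only such value among the 20 groups of 4 libraries examined (10 genes with AOAH and vehicle), and chance flags about 1 in 20 groups.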

How the results depend on the processing

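The differences of the brakes kept their sign in all 3 comparisons under each alternative that gave a value, which was all of them except for Fbxo32 with the filter of 5 TPM, which removes it and leaves 9 genes. The median difference was closer to 0 with a pseudocount of 5, at -0.72 for AOAH minus vehicle and -1.1 for AOAH minus PC, because a larger pseudocount compresses folds. With single libraries left out it ran from -1.01 to -0.91 for AOAH, 0.42 to 0.51 for PC and -1.44 to -1.36 for AOAH minus PC. Genes called with PC numbered 1339 with no filter, which tests more genes, and 1274 to 2083 with 1 library left out (1274 without vehicle 1, 1391 without vehicle 3, 1405 without PC 2 and 1387 without PC 3). With batch as a replicate block limma called 2300 genes for AOAH, 1572 for PC and 4246 for AOAH against PC. The pairing ended the calls of Ypel5, Arrdc3 and Castor1 with PC given above (0.0743, 0.072 and 0.0887) and of Cnot7 with AOAH (0.0679). It ended no other call of a pathway list gene that the text names. Differences that were not called changed sign for Foxo4 with PC in the fit over all 11 libraries and with vehicle 4 included (-0.03 in both). They also did so with single libraries left out for Foxo3 (-0.0039 to 0.11 with AOAH, -0.07 to 0.04 for AOAH minus PC) and Slc2a1 with PC (-0.02 to 0.08). Counts within the gene lists moved by over 1.5 times for other FOXO targets that rose with PC (10, and 5 with no filter), for genes of thioredoxin and glucose uptake that rose with AOAH (5, with 2 to 6 over the alternatives) or were lower with AOAH than with PC (5, 3 to 6), for FOXO factors and partners lower (6, 2 to 6) or higher (5, 3 to 5) with AOAH than with PC, and for PI3 kinase and mTOR brakes lower with AOAH than with PC (5, 3 to 7). Smaller counts, of 4 or fewer, moved by at most 2. Depth is unknown, so no counting interval can be given, and Fbxo32 lies near the filter.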
